A study of Mus musculus with 6 samples.

Results

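Genes for solute carriers, ABC proteins, ion-pumping ATPases and ion channels made up 82 of the 2652 genes in the deposited METTL3-RIP table. They were taken by symbol alone, as every gene whose symbol starts with the stem of a solute carrier (Slc, Slco), an ABC protein of subfamilies A to G, a numbered ATPase (Atp), a potassium, calcium or chloride channel (Kcn, Cacn, Clcn), a TRPM, TRPV or TRPC channel, a PIEZO channel, an inositol trisphosphate receptor (Itpr), a ryanodine receptor (Ryr), or an LRRC8, anoctamin, XPR1, TMC or purinergic receptor protein. A rule on symbols reads names and not functions. Protein-coding genes numbered 78. The other 4 were Itpr3os, an RNA antisense to Itpr3, Kcnq1ot1, a long noncoding RNA transcribed antisense to Kcnq1, the pseudogene Slc2a4rg-ps and Atp10d, which the annotation gives as a polymorphic pseudogene. Trpc4ap, also taken by its symbol, encodes an adaptor of a ubiquitin ligase and not a channel.

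The study asked which transcripts METTL3 binds in natural killer (NK) cells, lymphocytes that kill infected and tumor cells. METTL3 is the enzyme that writes N6-methyladenosine (m6A) into messenger RNA. Splenic NK cells were sorted by flow cytometry from wild-type C57BL/6 mice that had received pLIVE-IL-15, a plasmid expressing the cytokine IL-15, by hydrodynamic injection, that is, a rapid high-volume injection that delivers DNA mainly to the liver. From each lysate a portion was set aside as input (3 libraries) and the remainder was immunoprecipitated with an antibody to METTL3 (METTL3-RIP, 3 libraries). All 6 libraries thus share genotype, strain, plasmid and sort, and the comparison is between antibody-recovered RNA and total RNA of the same kind of cell. A mock immunoprecipitation, METTL3-deficient cells and cells of mice without the IL-15 plasmid were not analysed here. The mice were 6 to 10 weeks old. Whether a library came from a single mouse or from pooled mice is not given in the sources used here, so p-values measure the spread between libraries only.

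Values are RPKM, that is, reads of a gene per kilobase of its exons and per megaread of the library, which can be compared between genes. The unit was inferred from the values, and library totals recovered from them were 9401509 to 11809744 reads in METTL3-RIP and 14710607 to 15992386 reads in input. Every one of the 2652 genes has a deposited log2 fold change of at least 1 and a deposited p-value under 0.05, so the table lists genes selected for being higher in METTL3-RIP, and genes outside it were not analysed here. None of 13 NK cell markers (such as Ncr1 and Gzmb) was among the listed genes, nor any of 8 T cell, 6 B cell, 9 myeloid or 6 red cell markers, so that the labelled cell type could not be checked from these values.

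Membrane transport is divided among a few protein classes. Carriers of the SLC families move nutrients and ions by facilitated diffusion or by coupling to another gradient, ABC proteins and P-type ATPases use ATP to pump lipids, peptides, metals and ions, and channels let ions flow down their gradient. In lymphocytes, engagement of activating receptors leads to production of inositol trisphosphate, which opens Itpr channels in the endoplasmic reticulum, and the released calcium is cleared by SERCA pumps into the reticulum and by PMCA pumps across the plasma membrane. Activated lymphocytes also raise uptake of amino acids such as glutamine and leucine, which feed growth signalling through mTORC1.

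Most methylated adenosines lie in a short consensus of which GGACT is a common form, with the central A as the methylated base, and m6A is known to be dense around stop codons. The 25-base windows listed next show the GGACT closest to an annotated stop codon in the 3 inositol trisphosphate receptor genes and the 3 calcium pump genes with the highest METTL3-RIP values. They were read on the transcript strand from GRCm38 (RefSeq sequence of GRCm38.p6), and capitals mark the motif.
Itpr3, chr17:27122039-27122063, plus strand: cttgctcccaGGACTtgtctctccc
Itpr2, chr6:146111009-146111033, minus strand: gctgtctccaGGACTctgtgcgggc
Itpr1, chr6:108549845-108549869, plus strand: tgaggcagagGGACTctgctcagcc
Atp2a3, chr11:72992035-72992059, plus strand: ccctgatggaGGACTcatgggggcc
Atp2b1, chr10:99023210-99023234, plus strand: tcttgtctctGGACTtcaacagaag
Atp2b4, chr1:133706749-133706773, minus strand: acaacgccgtGGACTgccaccaagt
In Itpr1 the motif lies 19 bases past the stop codon and in Atp2b1 104 bases past it. The distances past the stop codon are 340 bases in Atp2a3, 524 in Itpr3 and 651 in Itpr2. Only the window of Atp2b4, of these 6, is in coding sequence, 69 bases before the stop codon. A match is a stretch of letters and not a measured methylation site, and such matches are common. GGACT, searched on the transcript strand, occurred in the exons of 98.7% of the 78 listed protein-coding members, of 97.5% of the 641 protein-coding genes of the same families outside the table, and of 90.2% of all 21894 protein-coding genes, which are shorter. Per kilobase of exon the median was 1.07 copies in listed members, 1.05 in unlisted genes of these families and 1.07 in the other listed genes, so that the motif's density barely set the listed members apart. In coding exons alone listed members had the lowest of these medians, with 0.967 in listed members, 1.11 in unlisted family genes and 1.08 in other listed genes. Their exons were longer, with a median of 6318.5 bases against 4410 in the unlisted family genes and 3499 in all protein-coding genes. Other listed genes had a median of 6865 bases.

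All 82 members were higher in METTL3-RIP than in input on the deposited scale (adjusted p under 0.05, limma), as were 100% of the listed genes. In all 82 the METTL3-RIP values also lay above every input value, which held for 99.8% of the table. These shares follow from how the table was made and say nothing particular about transporters and channels. With each library centred on its median of log2(RPKM + 0.1), 7 members passed the same threshold with positive values and 33 with negative values. The other 42 passed neither way. A negative value here is a smaller rise than the centre of the listed genes, not a lower METTL3-RIP level. Over all listed genes 11.2% passed with positive and 19.9% with negative values. What varies is the level and the size of the difference. The median member had a mean RPKM of 1.503 in METTL3-RIP and 0.126 in input, lower than the medians of 3.04 and 0.190 over all listed genes. The median log2 fold change was 2.79 in members and 3.23 over the table, on the log2(RPKM + 0.1) scale, which understates the change of low genes. Without a pseudocount the median ratio of mean RPKM was 13.1 in the 78 members with input reads and 14.4 in the 2487 listed genes with input reads. Members together took 0.271% ± 0.0202 of METTL3-RIP reads but 0.0185% ± 0.00161 of input reads (SD, n = 3 libraries).

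**Figure D1:**
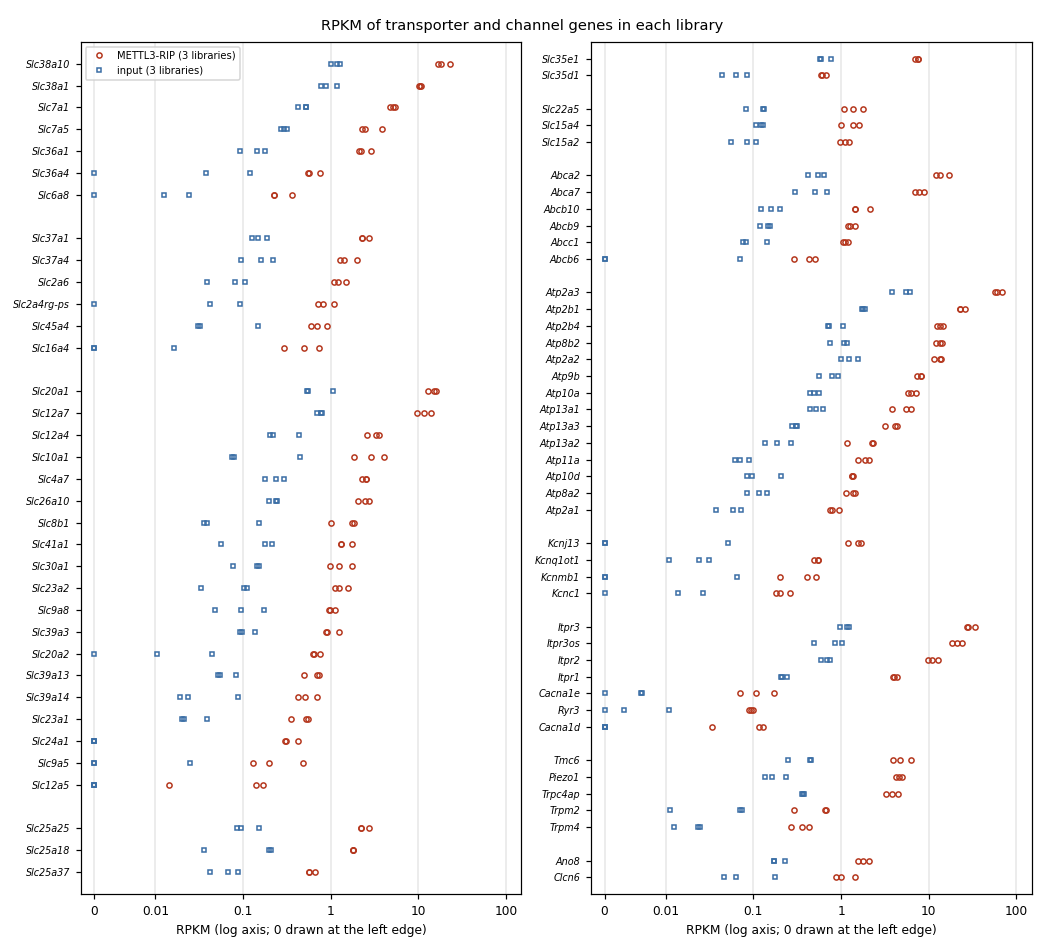
RPKM (log axis, 0 drawn at the left edge) of 78 of the 82 genes in the 3 METTL3-RIP libraries (circles) and the 3 input libraries (squares), grouped by class and ordered by mean METTL3-RIP value within a class. In every gene drawn the 3 circles lie to the right of the 3 squares, and the levels span from 61.9 RPKM in Atp2a3 to 0.0924 in Cacna1d.

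Levels were very uneven. In METTL3-RIP 13 members had a mean above 10 RPKM, 43 lay between 1 and 10, and 26 were below 1. In input only 5 had a mean above 1 RPKM and 33 were below 0.1. Across the 82 members, the order in METTL3-RIP followed the order in input with a Spearman's rho of 0.967, and over all listed genes rho was 0.909. This is a description across genes of the same libraries, and genes are not independent replicates. Of all member reads in METTL3-RIP, 40.5% came from Atp2a3, Itpr3, Atp2b1, Itpr2 and Atp2b4, the same 5 genes that held 37.9% of member reads in input. All 5 belong to calcium release, calcium uptake into the endoplasmic reticulum or calcium extrusion. Read numbers, unlike RPKM, also grow with exon length. By mean RPKM in METTL3-RIP, Itpr3os, Slc38a10, Slc20a1 and Abca2 ranked above Atp2b4 (rank 8) and Itpr2 (rank 12).

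**Figure D2:**
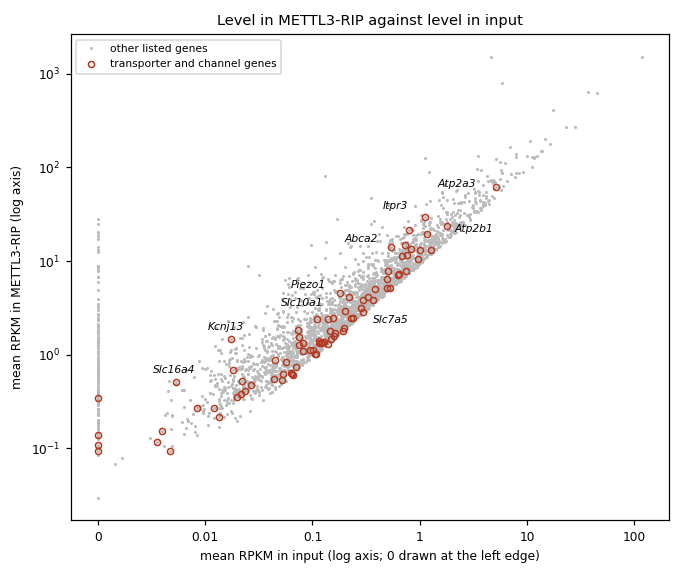
Mean RPKM in METTL3-RIP against mean RPKM in input (both log axes, n = 3 libraries each; an input mean of 0 is drawn at the left edge) for the 82 transporter and channel genes (open circles) and the 2570 other listed genes (dots). The members follow the band of the other genes, with a lower edge near a ratio of 9.14, and 4 members lie at 0 in input.

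The class of calcium release and calcium channels had the highest median log2 fold change, 3.72, and 0.28 with each library centred on its median. Among its 7 members are the antisense RNA Itpr3os, at 4.63, and Cacna1e, Cacna1d and Ryr3, at 1.04, 0.905 and 0.891. The median of 3.72 is the value of Itpr1, and its top rank rests on counting Itpr3os. Without that RNA it would lie midway between Itpr1 and Cacna1e, 3.72 and 1.04. That is below the median of every other class except potassium channels, at 1.71. With a pseudocount of 1 P-type ATPases had the higher median, 2.15 against 2.07. All 3 inositol trisphosphate receptor genes were listed. Itpr3 had 28.4, 34.04 and 27.2 RPKM in METTL3-RIP replicates 1, 2 and 3 and 1.17, 1.23 and 0.983 in input. Itpr2 gave 10.99, 12.7 and 9.83 RPKM in METTL3-RIP against 0.750, 0.697 and 0.588 in input. For Itpr1 the METTL3-RIP values were 3.96, 4.37 and 4.05 RPKM, far above the input values 0.240, 0.212 and 0.208. The order Itpr3, Itpr2, Itpr1 held in each group with no overlap between neighbours. Their log2 fold changes were 4.61 ± 0.16 (SE, limma adjusted p = 3.4e-07), 3.86 ± 0.17 (SE) and 3.72 ± 0.17 (SE), with adjusted p = 3.7e-07 (limma) for both Itpr2 and Itpr1. From pooled reads, METTL3-RIP was 26.3 times input for Itpr3 (exact 95% interval 23.9 to 28.9), 16.3 for Itpr2 (14.8 to 17.99) and 18.7 for Itpr1 (16.1 to 21.9). These intervals cover counting error only. They do not overlap between Itpr3 and the other two paralogs, and no test between genes was run.

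The antisense gene Itpr3os was recovered much as Itpr3 was. Replicates 1, 2 and 3 gave 18.6, 24.2 and 21.2 RPKM in METTL3-RIP against 0.496, 1.02 and 0.856 in input, a pooled ratio of 26.9 (18.5 to 40.5). No source says whether counting used strand, 29.3% of the exon bases of Itpr3os lie opposite exons of Itpr3, and 19.2% of its 31-base stretches recur elsewhere in the genome, so part of its reads may belong to other genes. The ryanodine receptor Ryr3, another release channel of the endoplasmic reticulum, was near the bottom of the table at 0.0940 ± 0.00450 RPKM (SD, n = 3) in METTL3-RIP and 0.00468 ± 0.00551 in input, from 55 and 4 reads. Voltage-gated calcium channels were as scarce. Cacna1e rested on 88 METTL3-RIP reads and 4 input reads, and Cacna1d on 10, 3 and 14 reads in METTL3-RIP and on none in input. Of 32 protein-coding genes in this class, 6 were listed.

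P-type ATPases were the class with the largest share of its genes in the table, 13 of 41 protein-coding genes (31.7%), against 8.69% of all protein-coding genes. They are ATP-driven pumps for calcium, other metals, polyamines and lipids. Long genes were listed more often, and at the listing rates of protein-coding genes with the same exon lengths 6.37 of the 41 would be listed. Atp2a3, which encodes SERCA3, a calcium pump of the endoplasmic reticulum in blood cells, was the most abundant member. It had 59.96, 68.1 and 57.5 RPKM in METTL3-RIP against 6.07, 5.46 and 3.80 in input. Atp2b1, encoding the plasma membrane pump PMCA1, had 22.8, 22.5 and 26.3 RPKM in METTL3-RIP against 1.75, 1.86 and 1.76 in input. Atp2b4, encoding PMCA4, followed with 12.5, 14.4 and 13.3 RPKM against 0.702, 1.05 and 0.727. These 3 genes kept separate ranges in METTL3-RIP and in input. Atp2a2, the widely used SERCA2, overlapped with Atp2b4 in both groups, at 14.0, 13.6 and 11.5 RPKM against 1.57, 0.987 and 1.24. Atp2a1, the SERCA of fast skeletal muscle, was far lower at 0.836 ± 0.107 RPKM (SD, n = 3) against 0.0561 ± 0.0172, and 21.9% of its exon bases lie opposite exons of Rabep2.

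The calcium pumps had smaller ratios than Itpr3, and of them only Atp2a3 had a higher level. The pooled ratio was 12 for Atp2a3 (exact 95% interval 11.3 to 12.7), 13.4 for Atp2b1 (12.3 to 14.6), 16.1 for Atp2b4 (14.6 to 17.7) and 10.2 for Atp2a2 (9.14 to 11.5). Log2 fold changes were 3.60 ± 0.20 (SE, limma adjusted p = 6.1e-07) for Atp2a3, 3.66 ± 0.14 (SE, limma adjusted p = 3.4e-07) for Atp2b1 and 3.88 ± 0.18 (SE, limma adjusted p = 3.8e-07) for Atp2b4. Of the 9 protein-coding genes with an Atp2 symbol, these 5 were listed.

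The remaining P-type ATPases were flippases and transporters of the ATP13A family. Flippases of the P4 type move phospholipids between the leaflets of a membrane, and Atp8b2, Atp9b, Atp10a, Atp10d, Atp11a and Atp8a2 carry such symbols. Their mean METTL3-RIP values ran from 13.1 RPKM for Atp8b2 through 7.91 for Atp9b, 6.42 for Atp10a, 1.84 for Atp11a and 1.35 for Atp10d to 1.32 for Atp8a2. Atp11a stood out by its ratio and not by its level. It had 1.86, 2.11 and 1.56 RPKM in METTL3-RIP against 0.0707, 0.0897 and 0.0610 in input, a pooled ratio of 24.6 (17.7 to 35.0) from 38 input reads. Atp13a1, which removes misplaced helices from the endoplasmic reticulum membrane, had 5.17 ± 1.22 RPKM against 0.530 ± 0.0871, and Atp13a3 3.88 ± 0.641 against 0.297 ± 0.0197 (SD, n = 3). Atp13a2, a lysosomal polyamine exporter linked to parkinsonism, was among the 5 smallest log2 fold changes of the 32 members whose input mean reached the table's median. Its METTL3-RIP values of 2.31, 2.25 and 1.17 RPKM were lowest in replicate 3, input held 0.186, 0.271 and 0.136, and the log2 fold change was 2.72 ± 0.31 (SE, limma adjusted p = 3.6e-05). In contrast, none of 43 protein-coding genes for V-type and F-type ATPases and their relatives, the multi-subunit proton pumps of lysosomes and the ATP synthase of mitochondria, was listed. At the listing rates for their short exons, 2.45 would be. No Atp1 gene, of 8 for the sodium pump and its relatives, was in the table either.

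**Figure D3:**
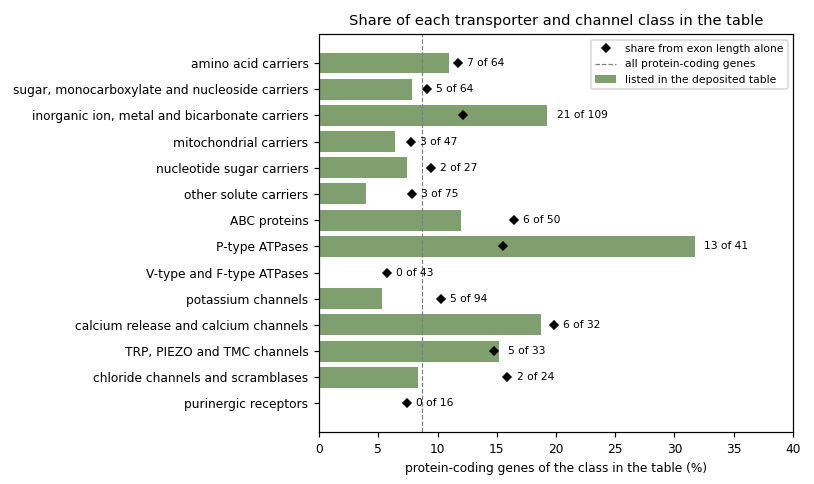
Share of the protein-coding genes of each class that the deposited table lists (bars, from 0, with the numbers listed and annotated), the share at the listing rate of genes of the same exon length (diamonds) and the share of all protein-coding genes (dashed line, 8.69%). P-type ATPases (13 of 41) and inorganic ion, metal and bicarbonate carriers (21 of 109) have bars well past their diamonds. TRP, PIEZO and TMC channels (5 of 33, Trpc4ap among the 5) lie just past theirs, and V-type and F-type ATPases and purinergic receptors have none listed.

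The class of inorganic ion, metal and bicarbonate carriers, which as drawn here also holds the bile acid carrier Slc10a1 and the vitamin C carriers Slc23a1 and Slc23a2, was the largest with 21 members, 19.3% of 109 protein-coding genes. Potassium-chloride cotransporters of the SLC12 family export salt and let swollen cells shrink. Slc12a7 had 11.7, 13.8 and 9.57 RPKM in METTL3-RIP against 0.704, 0.768 and 0.795 in input. Slc12a4 was lower, at 3.26, 3.53 and 2.59 RPKM against 0.430, 0.205 and 0.222. The ranges of these genes did not overlap in METTL3-RIP or in input. Slc12a5, known from neurons, rested on 1, 10 and 15 reads in METTL3-RIP and none in input, which put it at least 4.11-fold higher against a floor of 3 reads per input library. Its test depended on single libraries, with adjusted p = 0.016 (limma) for all 6, 0.057 without METTL3-RIP replicate 2 and 0.056 without replicate 3. The log2 fold change of Slc12a7 was 3.77 ± 0.17 (SE, limma adjusted p = 3.7e-07).

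Both phosphate importers of the SLC20 family were listed, and none of the 3 Slc34 genes was. Slc20a1, the sodium-phosphate carrier PiT-1, had 16.1, 14.97 and 12.9 RPKM in METTL3-RIP against 0.553, 1.08 and 0.536 in input, where replicate 2 was the highest. Its log2 fold change of 4.22 ± 0.26 (SE, limma adjusted p = 8.9e-07) was among the 5 largest of members with an input mean at or above the table's median. For Slc20a2 (PiT-2) the values were 0.633, 0.653 and 0.749 RPKM against 0.0106, 0 and 0.0437, on 131 and 5 reads.

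Acid and bicarbonate carriers were of middling level. Slc4a7, a sodium-bicarbonate cotransporter, had 2.56, 2.51 and 2.30 RPKM against 0.178, 0.296 and 0.239, and with Slc26a10 it was among the 5 smallest log2 fold changes, 2.93 ± 0.20 (SE, limma adjusted p = 1.8e-06). Slc26a10, of the anion exchanger family, had 2.74, 2.49 and 2.06 RPKM against 0.237, 0.198 and 0.246 (log2 fold change 2.95 ± 0.20, SE, limma adjusted p = 1.4e-06), and 17.8% of its exon bases lie opposite B4galnt1. The sodium-proton exchangers Slc9a8 (1.01 RPKM) and Slc9a5 (0.272 RPKM) had lower METTL3-RIP levels.

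Metal carriers were low but listed for several metals. Zinc was represented by the exporter Slc30a1 (1.33 ± 0.386 RPKM in METTL3-RIP, SD, n = 3) and by the importers Slc39a3, Slc39a13 and Slc39a14, with 1.01, 0.642 and 0.548 RPKM. Slc41a1, a magnesium carrier, had 1.46 ± 0.238 RPKM against 0.149 ± 0.0832. Slc8b1, the sodium-calcium exchanger of the mitochondrial inner membrane, reached 1.84, 1.74 and 1.003 RPKM against 0.152, 0.0361 and 0.0393. Vitamin C carriers Slc23a2 and Slc23a1 had 1.32 and 0.476 RPKM. Slc24a1, a potassium-dependent sodium-calcium exchanger of rod photoreceptors, had 0.306, 0.299 and 0.422 RPKM in METTL3-RIP from 15, 15 and 26 reads and 0 in every input library, and was at least 9.10-fold higher against the same floor.

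Slc10a1, the bile acid carrier of hepatocytes, varied between libraries. It had 2.86, 1.86 and 4.10 RPKM in METTL3-RIP against 0.0785, 0.0747 and 0.447 in input, and replicate 3 was the highest library in both groups. Input replicate 3 held 11 of its 15 input reads. Its log2 fold change of 3.49 had an SE of 0.49 (adjusted p = 0.00012, limma), the widest error among members with over 2 RPKM in METTL3-RIP.

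Amino acid carriers numbered 7 of 64 protein-coding genes. Slc38a10, a carrier of neutral amino acids, was highest with 18.3, 22.8 and 16.8 RPKM in METTL3-RIP against 1.19, 1.27 and 1.02 in input. Its log2 fold change of 3.94 ± 0.17 (SE, limma adjusted p = 3.6e-07) was also among the 5 largest of members at or above the table's median input. Slc38a1, the glutamine carrier SNAT1, had 10.2, 10.8 and 10.5 RPKM against 1.19, 0.894 and 0.778, the most even METTL3-RIP values of this class, although 15.6% of its 31-base stretches recur elsewhere. Slc7a1, which imports arginine and lysine, had 5.35, 5.14 and 4.80 RPKM against 0.524, 0.423 and 0.525. Slc7a5, the light chain of the leucine carrier LAT1, had 3.82, 2.47 and 2.28 RPKM against 0.319, 0.270 and 0.293. METTL3-RIP replicate 1 was the high one there, and the log2 fold change of 2.87 ± 0.23 (SE, limma adjusted p = 4.3e-06) was among the 5 smallest. Lysosomal Slc36a1 had 2.41 RPKM against 0.139, Slc36a4 0.626 against 0.0529, and the creatine carrier Slc6a8 0.271 against 0.0122, the last on 43 and 3 reads.

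Carriers of sugars and monocarboxylates were modest in level. Slc37a1 and Slc37a4 exchange glucose 6-phosphate for phosphate, the latter in the endoplasmic reticulum. They had 2.29, 2.75 and 2.29 RPKM against 0.127, 0.190 and 0.150, and 2.01, 1.27 and 1.42 RPKM against 0.161, 0.219 and 0.0952. Slc2a6, the glucose transporter family member GLUT6, had 1.23, 1.49 and 1.08 RPKM against 0.0818, 0.0390 and 0.106. Slc45a4 followed at 0.737 RPKM against 0.0703. Slc16a4, of the monocarboxylate family, had 61 METTL3-RIP reads and 1 input read, a pooled ratio of 90.9 whose exact 95% interval ran from 15.7 to 3648. The pseudogene Slc2a4rg-ps, placed in this class by its symbol alone, had 0.872 ± 0.191 RPKM against 0.0445 ± 0.0457 (SD, n = 3).

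Carriers of organelles were few, with 3 of 47 mitochondrial carriers and 2 of 27 nucleotide sugar carriers. Slc25a25, an ATP-magnesium/phosphate carrier regulated by calcium, had 2.22, 2.77 and 2.24 RPKM against 0.150, 0.0954 and 0.0865. Slc25a18, a glutamate carrier, had 1.78, 1.80 and 1.82 RPKM against 0.206, 0.196 and 0.0356, with input replicate 3 resting on 1 read. Slc25a37, the iron importer mitoferrin 1, had 0.565, 0.570 and 0.661 RPKM against 0.0873, 0.0415 and 0.0677. Its ratio of 9.14 was the lowest in the whole table, which holds only genes selected for being higher in METTL3-RIP. Slc35e1, an orphan of the nucleotide sugar family, was steady at 6.97, 7.49 and 7.48 RPKM against 0.764, 0.588 and 0.578. Slc35d1, which brings UDP-sugars into the endoplasmic reticulum, had 0.620 ± 0.0484 against 0.0642 ± 0.0204. Among the other carriers, carnitine transporter Slc22a5 had 1.35, 1.80 and 1.08 RPKM against 0.128, 0.0815 and 0.133, with 39.4% of its 31-base stretches found elsewhere. The proton-coupled peptide carriers Slc15a4, of endolysosomes, and Slc15a2 had 1.31 ± 0.295 against 0.119 ± 0.0117 and 1.10 ± 0.125 against 0.0825 ± 0.0259 RPKM (SD, n = 3).

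ABC proteins were led by a pair of lipid transporters of the A subfamily. Abca2, found in endosomes and lysosomes, had 12.1, 17 and 13.4 RPKM in METTL3-RIP against 0.645, 0.539 and 0.424 in input. Abca7 gave 7.74, 8.81 and 7.04 RPKM against 0.506, 0.695 and 0.302. Abca2 had the larger difference, with a log2 fold change of 4.49 ± 0.20 (SE, limma adjusted p = 3.7e-07) against 3.78 ± 0.26 (SE, limma adjusted p = 1.7e-06), and pooled ratios of 26.3 (22.9 to 30.4) and 15.4 (13.1 to 18.3). The others were lower. Abcb10, of the mitochondrial inner membrane, had 1.46, 2.15 and 1.46 RPKM against 0.122, 0.203 and 0.158. Lysosomal peptide transporter Abcb9 (1.30 RPKM), the drug and leukotriene exporter Abcc1 (1.12 RPKM) and the porphyrin transporter Abcb6 (0.406 RPKM) completed the class. All input reads of Abcb6 fell in replicate 2, and 55.2% of its exon bases are shared with the same-strand gene Gm29253. No ABCD, ABCE, ABCF or ABCG gene was listed.

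The class of TRP, PIEZO and TMC channels had 5 of its 33 protein-coding genes listed, counting Trpc4ap, which is not a channel. Piezo1, the pressure-gated cation channel, had 4.55, 4.91 and 4.23 RPKM in METTL3-RIP against 0.238, 0.164 and 0.137 in input, with a log2 fold change of 4.07 ± 0.20 (SE, limma adjusted p = 4.1e-07) and a pooled ratio of 25.3 (20.2 to 32.0). Its exons lie opposite Ctu2 over 24.6% of their bases. Tmc6, part of a zinc-regulating complex of the endoplasmic reticulum, had 4.71, 6.33 and 3.95 RPKM against 0.450, 0.443 and 0.249. Trpc4ap had 3.78, 4.41 and 3.22 RPKM against 0.360, 0.379 and 0.365, with input values that were nearly equal. The calcium-permeable, ADP-ribose-gated channel Trpm2 had 0.656, 0.675 and 0.289 RPKM against 0.0746, 0.0710 and 0.0110, with replicate 3 lowest in both groups. Trpm4, a sodium-permeable channel opened by calcium, had 0.351 ± 0.0833 against 0.01998 ± 0.00645 RPKM (SD, n = 3).

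Potassium channels had the lowest median log2 fold change of any class, 1.71, and the lowest levels, where the pseudocount weighs most. Without a pseudocount their median ratio of mean RPKM, 24 over the 5 with input reads, was the highest of any class. Of 94 protein-coding genes 5 were listed. Kcnj13, an inward rectifier, had 1.68, 1.56 and 1.20 RPKM in METTL3-RIP against 0.0517, 0 and 0 in input, from 57 reads and 1 read. Its pooled ratio of 84.9 had an interval of 14.6 to 3413, and 49.1% of its exon bases lie opposite Gigyf2, so its own level is uncertain. Kcnq1ot1, the noncoding RNA that silences imprinted genes around Kcnq1, was even at 0.547, 0.497 and 0.541 RPKM against 0.0109, 0.0237 and 0.0314 and had 1376 METTL3-RIP reads over its long exon. Kcnmb1, the auxiliary subunit of calcium-activated potassium channels in smooth muscle, had 0.203, 0.521 and 0.404 RPKM against 0, 0 and 0.0649. The voltage-gated Kcnc1, known from neurons, had 0.215 ± 0.0439 RPKM against 0.0134 ± 0.0132 (SD, n = 3). By the 3-read floor used above, the calcium channel gene Cacna1d was at least 4.35-fold higher.

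Chloride channels and scramblases were 2 of 24. Ano8, an anoctamin that tethers the endoplasmic reticulum to the plasma membrane, had 1.57, 2.10 and 1.76 RPKM against 0.173, 0.174 and 0.228, and its ratio of 9.44 was the lowest among the 32 members with at least 50 input reads. The chloride-proton exchanger Clcn6 of late endosomes had 1.004, 1.44 and 0.885 RPKM against 0.177, 0.0632 and 0.0458. None of 16 purinergic receptor genes was listed, nor any of 5 Lrrc8 genes for volume-regulated anion channels.

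**Figure D4:**
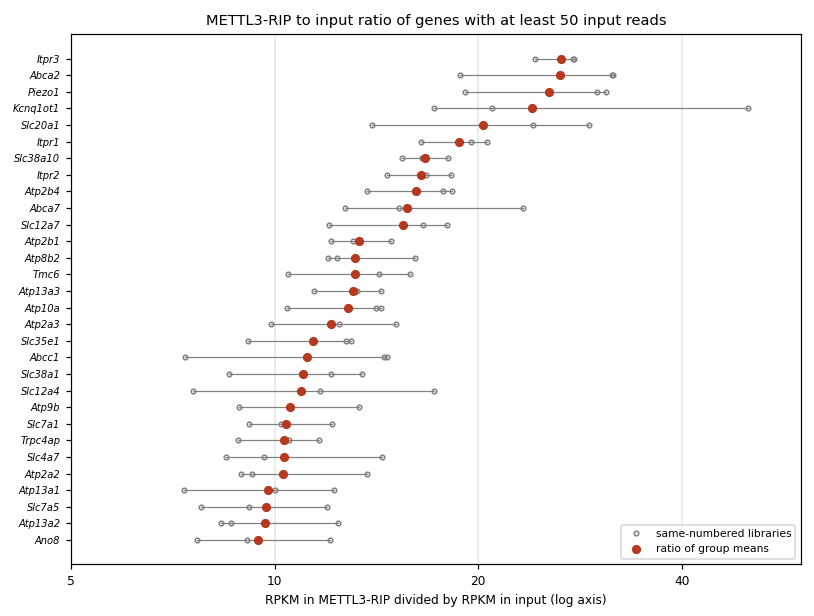
Ratio of RPKM in METTL3-RIP to input (log axis) for 30 of the 32 genes with at least 50 input reads in all. Filled points give the ratio of group means, and open points joined by a line give the ratios of the 3 same-numbered library pairs, a numbering not shown to pair the samples. Itpr3, Abca2 and Piezo1 are at the top with ratios of 26.5, 26.5 and 25.4, and Ano8 at the bottom with 9.44.

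Ratios could be ranked only where input was well covered. In the 32 members with at least 50 input reads, the ratio ran from 9.44 to 26.5 with a median of 12.7, and it exceeded 20 in 5 genes, Itpr3, Abca2, Piezo1, Kcnq1ot1 and Slc20a1. It was between 10 and 20 in 23 and under 10 in 4. The lower end lies near 9.14, the lowest ratio of any listed gene, and genes of lower ratio may have been left out by the selection. Across these 32 genes Spearman's rho of the ratio was 0.293 with exon length, 0.207 with copies of GGACT per kilobase and 0.206 with the input level, all weak, as a description over genes of the same libraries. Among the rest, 15 members had between 1 and 10 input reads and 4 had none, so that their ratios are poorly bounded. The median coefficient of variation over members was 16.2% in METTL3-RIP and 31.3% in input.

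Genes that work with these transporters were present in part. Of all protein-coding genes 8.69% were listed, and exon length was not allowed for in these lists. Of 23 genes for store-operated calcium entry and NFAT signalling 4 were listed. They were Plcg2 and Plcg1, which make inositol trisphosphate, the transcription factor Nfatc2 and the calcium sensor Cracr2a. All 4 were past the threshold and higher in METTL3-RIP on the deposited scale, as were 100% of the listed genes. With each library centred on its median, Plcg1 and Plcg2 had values of -0.63 and -0.13, which did not pass (adjusted p = 0.059 and 0.30, limma). Plcg2 had 41.4, 41.2 and 35.6 RPKM in METTL3-RIP against 4.08, 3.88 and 3.64 in input. Plcg1 was low with 0.833 RPKM against 0.0335, a ratio of mean RPKM of 24.9, against 10.2 for Plcg2. Nfatc2 had 8.13 ± 0.755 against 0.622 ± 0.0446, and Cracr2a 10.8 ± 1.86 against 0.565 ± 0.00996 (SD, n = 3). Of 12 genes for WNK control of cation-chloride cotransport, only the kinase Wnk1, which restrains potassium-chloride cotransport, was listed, at 25.7 ± 0.730 RPKM against 2.19 ± 0.281.

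Amino acid sensing by mTORC1 had 10 of 37 genes in the table, against 8.69% of all protein-coding genes. All 10 were past the threshold and higher on the deposited scale, as were 100% of the listed genes. With each library centred on its median, Sesn2, Wdr59 and Fnip2 had negative values past the threshold. Depdc5, Flcn and Tsc1 then had negative values that did not pass. Centring keeps the pseudocount, which weighs on low genes. Without a pseudocount the ratios of mean RPKM were 9.93 for Sesn2, 19.4 for Wdr59 and 14.45 for Fnip2. The median ratio over listed genes with input reads was 14.4. The 10 genes included the kinase Mtor (4.53 RPKM against 0.184) and its scaffold Rptor (2.39 against 0.0867). The GATOR components Depdc5 and Wdr59 had 2.13 and 0.574 RPKM, the leucine sensor Sesn2 1.07, folliculin Flcn and its partner Fnip2 3.18 and 1.04, and Tsc1 and Tsc2 3.01 and 4.52. The ratio was lowest in Flcn, 9.503, and the median over the 10 was 14.6. Of 12 partners and assembly factors of proton pumps and flippases, Dmxl1 alone was listed, with 1.69 RPKM against 0.133.

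The size of the difference depends on the scaling of each library. RPKM compares shares of a library, so RNA amounts before sequencing are not measured, and the table's median log2 fold change is 3.23. Centring each library on its median sets a member against the listed genes, all selected as higher in METTL3-RIP. It does not ask whether a member was higher or lower than input. After centring, at an adjusted p under 0.05 (limma), 7 members had positive and 33 negative values, with 42 past neither way. Over all listed genes 11.2% were positive and 19.9% negative at that threshold.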

How the data were processed

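Per the labels and methods, stranded paired-end libraries were mapped by the authors to mouse GRCm38 with STAR 2.5.3a. The counter, its annotation and its use of strand are not given in the sources used here. The deposited gene table holds an RPKM value for each gene in each library, made by the authors, a unit inferred from the values: with exon-union lengths of GENCODE M21, 82.8% to 84.4% of values above 0 were whole reads within 0.01 read. For 17 members the shortest length giving whole reads was taken, and their read numbers carry that uncertainty. The deposited table also holds the authors' log2 fold change and p-value of METTL3-RIP against input, which were not used except to see that every gene passes a log2 fold change of 1 and a p-value of 0.05.

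Samples were grouped by title. RPKM was transformed to log2(RPKM + 0.1), and all 6 libraries were fitted with limma 3.58.1 (R 4.3.3, lmFit, eBayes with trend, two-sided, no filter), with Benjamini-Hochberg adjustment over 2652 genes and a threshold of 0.05. With 3 libraries against 3, an exact permutation test cannot give p below 0.1, so none was run. The design had provided a count model for raw counts, which the table does not hold. The fit was tested on simulated data. Pooled ratios are reads per library total with exact 95% intervals from scipy 1.17.1. Members with 0 input reads were set against a floor of 3 reads per input library. Intervals and floors cover counting error only. Exon lengths, overlaps and biotypes are from GENCODE M21, and motifs and repeated 31-base stretches from the GRCm38.p6 sequence.

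Named genes were the 3 highest METTL3-RIP values of each class, the 5 largest and 5 smallest log2 fold changes among the 32 members with an input mean at or above the table's median, members at 0 in input, and listed genes of the pathway lists. A few results are not reported here, and their genes are left out of the figures with gene labels. Other members are named to account for each class, after their values were seen. Members, classes and lists were chosen with earlier results of these data known. Alternatives were pseudocounts of 1 and 0.5, a filter at a mean RPKM of 1, a replicate block, median centring, leaving out each library and, for the motif, coding exons only.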

Additional observations from a re-analysis of the deposited data

How the results depend on the processing

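Of 736 alternative values over 71 results, 47 turned direction, all with median centring, and 13 were no longer past the threshold. A further 40 differed only in size (by over 1 SD between replicates, or over 1.5 times for a count). The other 636 did none of these. Centring sets a value against listed genes that are all higher in METTL3-RIP. A turn below 0 is thus a smaller rise and not a lower METTL3-RIP level. The median log2 fold change of members, 2.79, was 1.17 with a pseudocount of 1 and 1.68 with 0.5, and all 82 members stayed past the threshold in both. With only genes of a mean RPKM of at least 1, 35 members were tested, all 35 passed and their median was 3.41. Leaving out each library in turn gave 81 to 82 members past the threshold and medians of 2.79 to 2.97, the loss being Slc12a5 (adjusted p = 0.057 without METTL3-RIP replicate 2 and 0.056 without replicate 3, limma). Input depth, with a median of 10 to 12 reads per member and library, limits the ratios. GGACT per kilobase in listed members was 0.967 in coding exons alone, below the 1.11 of unlisted family genes and the 1.08 of other listed genes, against 1.07 in all exons.

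Titles give both groups the same replicate numbers. Deviations from the group means correlated across genes with r of -0.021, -0.022 and 0.013 for same-numbered libraries, so the numbers were not shown to pair the samples. With the replicate block 82 members passed and the median was 2.79, and no call on a member changed.

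Centring each library on its median of log2(RPKM + 0.1) left 40 members past the threshold and a member median of -0.66. The amount that centring takes off each log2 fold change is not the table's median log2 fold change of 3.23. Tmc6, for example, had 3.41 before centring and -0.035 after it. Medians of classes became -0.15 for P-type ATPases, -0.30 for amino acid carriers, -0.40 for TRP, PIEZO and TMC channels, -0.41 for mitochondrial carriers, -0.71 for sugar, monocarboxylate and nucleoside carriers and inorganic ion, metal and bicarbonate carriers and nucleotide sugar carriers, -0.72 for other solute carriers, -0.75 for ABC proteins, -0.76 for chloride channels and scramblases, -1.74 for potassium channels. Log2 fold changes of single genes became Tmc6 -0.035, Tsc1 -0.084, Slc38a1 -0.10, Slc35e1 -0.12, Slc37a1 and Plcg2 -0.13, Slc7a1 -0.30, Depdc5 -0.32, Trpc4ap -0.40, Slc25a18 -0.41, Slc2a6 -0.48, Dmxl1 -0.49, Slc26a10 -0.50, Slc4a7 -0.51, Flcn -0.53, Slc7a5 -0.57, Plcg1 -0.63, Slc22a5 -0.65, Abcb10 -0.68, Fnip2, Slc15a2 and Atp13a2 -0.72, Ano8 -0.74, Slc37a4 -0.75, Slc15a4 and Clcn6 -0.78, Sesn2 -0.92, Wdr59 -1.07, Kcnq1ot1 -1.08, Slc35d1 and Slc24a1 -1.31, Slc25a37 -1.36, Kcnmb1 -1.50, Slc12a5 -2.48, Cacna1d -2.54. A further 11 named genes stayed above 0 and were no longer past the threshold.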
